A study of Mus musculus with 4 samples.

Results

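The Bcl2 family decides whether a cell releases cytochrome c from its mitochondria, the step that starts the intrinsic path of apoptosis. Pro-survival members hold effectors such as Bax and Bak1 in check, and these, once free, open pores in the outer mitochondrial membrane. BH3-only members, named after the short BH3 segment by which family members bind each other, sense stress and either block the pro-survival members or switch on the effectors. Much of this control acts on the proteins, which were not measured here. Described here are 10 genes of the family, chosen by name and looked up by Ensembl identifier among the 30049 genes of the deposited table, in which all 10 were found. The pro-survival group holds Bcl2, Bcl2l1, Bcl2l10 and Mcl1, and the pro-death group the effectors Bax, Bak1 and Bok and the BH3-only members Bid, Bad and Bcl2l11.

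RNA was taken from pooled wild-type embryos at the 2-cell stage (strain background BDF1*BDF1 F2, BDF1 being a first-generation cross of C57BL/6 and DBA/2). Zygotes collected 18 h after human chorionic gonadotropin spent 24 h in the embryo culture medium KSOM, alone (control) or with 2% dimethyl sulfoxide (DMSO), a solvent and cryoprotectant. The females, young adults, had been superovulated, and 50 embryos were collected for each group. There are 2 libraries for each group, and nothing states whether these came from separate cultures, so that p-values measure the spread between the libraries, which may be technical.

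The values are TPM, a unit that corrects for the length of a transcript and for the size of a library, so that levels can be set side by side between genes. The genes in the table summed to between 768174 and 799166 TPM in the 4 libraries, and values above 0 were listed for 18369 to 18952 genes. These sums fall short of the fixed total to which TPM values of a whole library add up, so some transcripts are not represented in these values, and the level of a gene relative to others may be too low where its own transcripts are among them. Depth is unknown. Where 2 values are given for a group, the first is that of replicate 1 and the second that of replicate 2. Of 14 maternal genes listed as markers of the stage, 13 reached a mean of 1 TPM over the libraries. Dppa3 was at 11639 and 15346 TPM without DMSO and 10828 and 15216 TPM with it, although 29.6% of its 31-base words occur in transcripts of other genes. Nlrp5, named after its values were seen, was at 0 and 0.142 TPM without DMSO and 0 and 0.129 TPM with it. Gm5662, a gene switched on at the 2-cell stage, was at 225 and 149.9 TPM without DMSO and 1275 and 783 TPM with it, although 89.1% of its 31-base words occur in transcripts of other genes.

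The feature that joins the family is the BH3 segment, whose core reads leucine, any 3 residues, glycine and aspartate. An in-frame search of the principal coding sequences found this core in 8 of the 10 members and in 12.8% of all 22500 genes searched. Bad and Bcl2l10 had no match, and in Bad the same spacing with serine in place of glycine, searched for after the first search had missed it, was found, as it was in 15.3% of all genes searched. The stretches of the 3 pro-death members with enough RNA to be tested are shown with that of Bcl2, the founding pro-survival member, for comparison. Each is 39 bases of coding sequence, 5′ to 3′, lies within a single exon and is given on GRCm38 from GENCODE M21, with the codons of leucine, glycine (serine in Bad) and aspartate in capitals.
Bax (chr7:45465997-45466035, minus strand, exon 3): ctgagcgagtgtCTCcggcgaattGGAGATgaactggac
Bad (chr19:6950780-6950818, plus strand, exon 3): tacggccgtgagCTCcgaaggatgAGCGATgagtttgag
Bcl2l11 (chr2:128147138-128147176, plus strand, exon 3): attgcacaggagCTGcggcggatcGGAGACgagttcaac
Bcl2 (chr1:106712575-106712613, minus strand, exon 1): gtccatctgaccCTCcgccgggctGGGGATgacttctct
No stretch is shown for Bcl2l10, whose coding sequence of 191 codons holds neither core. A match or its absence describes the letters alone. A second family feature, asparagine, tryptophan, glycine and arginine in a row, was found in Bcl2, Bcl2l1, Mcl1 and Bax and in 0.102% of the genes searched.

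The comparison of control with DMSO-treated embryos asks how 2% DMSO changed the RNA of these genes. Bcl2l10, by far the most abundant member, was higher in DMSO-treated embryos, while the effector Bax and the BH3-only member Bad were lower. The BH3-only member Bcl2l11 did not pass the test. Bcl2, Bcl2l1 and Bid were near or below 1 TPM, and Mcl1, Bak1 and Bok were listed at 0 in all 4 libraries. The test was made with limma on log2(TPM + 1) for genes whose mean over the libraries reached 1 TPM. This left 4 of the 10 members, and 3 of these 4 were called at an adjusted p-value under 0.05. Of all 12038 genes tested 20.5% were called, 6.42% as higher and 14.1% as lower in DMSO-treated embryos. This balance rested on the scaling between libraries, since 773 genes were called higher and 1697 lower on the deposited values and 1076 and 1121 after quantile normalization.

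**Figure D1:**
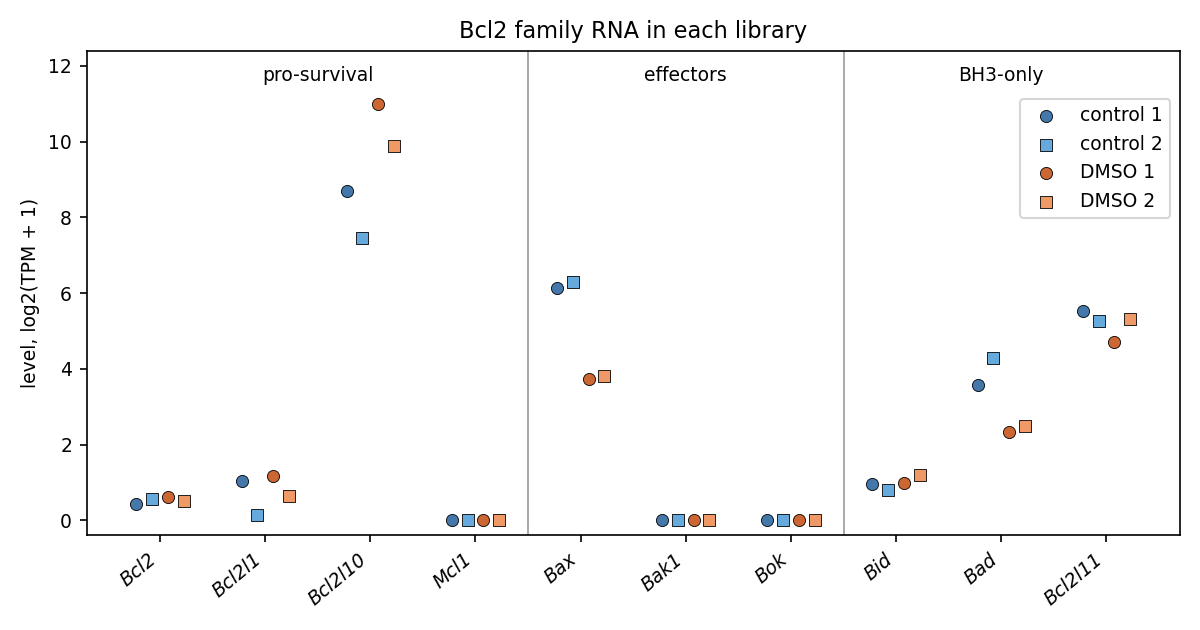
Level of each of the 10 members as log2(TPM + 1) in the 2 control libraries (blue) and the 2 DMSO libraries (orange), with circles for replicate 1 and squares for replicate 2. Bcl2l10 lies above all other members in every library, Bax and Bad are lower in both DMSO libraries, and Mcl1, Bak1 and Bok lie at 0.

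Among the pro-survival members, Bcl2l10 (ENSMUSG00000032191, chromosome 9 of GRCm38 from 75347758 to 75351632, plus strand) is best known from oocytes, and in mice both a pro-survival and a pro-death action have been described for it. It was at 416 and 175 TPM without DMSO and 2043 and 949.9 TPM with it. Both DMSO libraries lay above both control libraries, and in each group the library numbered 1 held more than 2 times the level of the library numbered 2. The mean rose from 296 ± 170 TPM (SD, n = 2) to 1497 ± 773 TPM (SD, n = 2), a 5.06-fold difference. The log2 fold change was 2.36 (standard error, SE, 0.51, limma adjusted p = 0.0299). Groups that do not overlap were common, at 69.8% of all genes tested and 31.1% as higher in DMSO-treated embryos. By rank of TPM, Bcl2l10 stood at places 275 and 732 among the genes of the control libraries and at places 38 and 88 in the DMSO libraries. None of its 31-base words occur in transcripts of other genes, and no annotated gene overlaps it. A smaller number of cells with an RNA and less of it in each cell cannot be told apart in pooled embryos, here or for the genes that follow.

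Of the other pro-survival members, Bcl2 (ENSMUSG00000057329), which gives the family its name, was at 0.356 and 0.481 TPM without DMSO and 0.527 and 0.433 TPM with it, and the groups overlapped. Bcl2l1 (ENSMUSG00000007659), which encodes Bcl-xL, was at 1.05 and 0.103 TPM without DMSO and 1.26 and 0.571 TPM with it, and the groups overlapped again. Neither reached the mean of 1 TPM needed for the test. Mcl1 (ENSMUSG00000038612), a short-lived pro-survival protein that many cells depend on, was listed at 0 in each of the 4 libraries.

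A listed 0 in this table cannot be read as missing RNA. Of 30 genes that nearly every cell uses, chosen after values had been seen, 4 were at 0 in at least 1 library. The glycolytic enzyme genes Pgk1 and Ldha were at 0 in 2 libraries each, and the RNA polymerase II subunit gene Polr2a and the actin gene Actb in 1 each. Ldha was at 0.394 and 0 TPM without DMSO and 0 and 0.775 TPM with it. Unlike Mcl1, Bak1 and Bok, none of the 30 was at 0 in all 4 libraries. The 30 genes therefore do not show what the 0 of these members stands for. Only 0.498% of the 31-base words of Mcl1 occur in other genes, and none of those of Bok. For Bak1 the share was 20.4%, and Ggnbp1 lies across it on the opposite strand.

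Among the effectors, Bax (ENSMUSG00000003873, chromosome 7 from 45461697 to 45466898, minus strand) was the sole member with a value above 0. It encodes the pore-forming protein that moves from the cytosol to mitochondria. It was at 69.2 and 76.9 TPM without DMSO and 12.3 and 13.0 TPM with it. The libraries of a group lay close together and the groups far apart. The mean fell from 73.1 ± 5.42 TPM (SD, n = 2) to 12.6 ± 0.517 TPM (SD, n = 2), so that it was 5.78-fold higher in control embryos. The log2 fold change was -2.44 (SE 0.26, limma adjusted p = 0.0181). Of all genes tested, 38.7% were lower in both DMSO libraries than in both control libraries. Of the 31-base words of Bax 11.1% are shared with other genes, most of them with Gm45808. That gene, annotated across part of Bax on the same strand, is not among the genes of the deposited table. Bak1 (ENSMUSG00000057789), the effector that sits in the outer mitochondrial membrane, and Bok (ENSMUSG00000026278) were listed at 0 in all libraries.

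Among the BH3-only members, Bad (ENSMUSG00000024959, chromosome 19 from 6941861 to 6951899, plus strand), which links growth factor signals to the family through its phosphorylation, was at 10.97 and 18.5 TPM without DMSO and 3.99 and 4.65 TPM with it. Both DMSO libraries lay below both control libraries, and the control libraries differed more from each other than the DMSO libraries did. The mean fell from 14.7 ± 5.30 TPM (SD, n = 2) to 4.32 ± 0.467 TPM (SD, n = 2). The log2 fold change was -1.52 (SE 0.36, limma adjusted p = 0.0338). Bad shares 18.4% of its 31-base words with Gpr137, which overlaps it by 620 bases on the opposite strand. Gpr137 itself was at 1.80 and 2.81 TPM without DMSO and 3.05 and 4.36 TPM with it, levels below those of Bad in the control libraries and close to them in the DMSO libraries.

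Bcl2l11 (ENSMUSG00000027381, chromosome 2 from 128126038 to 128162547, plus strand) encodes Bim, which binds all pro-survival proteins of the family. It was at 44.7 and 37.2 TPM without DMSO and 25.2 and 38.9 TPM with it. DMSO replicate 2 lay between the control libraries and DMSO replicate 1 below them. The log2 fold change was -0.37 (95% interval -1.12 to 0.38, limma adjusted p = 0.4). Bid (ENSMUSG00000004446), which carries the signal of death receptors to mitochondria once caspase-8 has cleaved it, was at 0.947 and 0.749 TPM without DMSO and 0.983 and 1.29 TPM with it, with a mean below 1 TPM and no test. Of its 31-base words 16.9% are shared with Bcl2l13, which overlaps it on the opposite strand.

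The 3 calls changed with the filter and with the library left out, as did calls over the whole table. Nearly all of the latter were lost without control replicate 1, control replicate 2 or DMSO replicate 1, and all without the filter. Without control replicate 1, control replicate 2 or DMSO replicate 1, in fits where the lone library is assumed to vary like the others, none of the 3 genes was called. The adjusted p-values of Bcl2l10 were then 0.0519, 0.157 and 0.114, those of Bax 0.0518, 0.129 and 0.0605, and those of Bad 0.0622, 0.214 and 0.126, in the same order. Without DMSO replicate 2 Bcl2l10 and Bax were called and Bad was not (limma adjusted p = 0.0621). In these 4 fits the log2 fold changes kept their signs, lying between 1.74 and 2.99 for Bcl2l10, between -2.52 and -2.37 for Bax and between -1.87 and -1.17 for Bad. With every gene above 0 TPM tested, the adjusted p-values were 0.132, 0.102 and 0.115 for Bcl2l10, Bax and Bad.

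**Figure D2:**
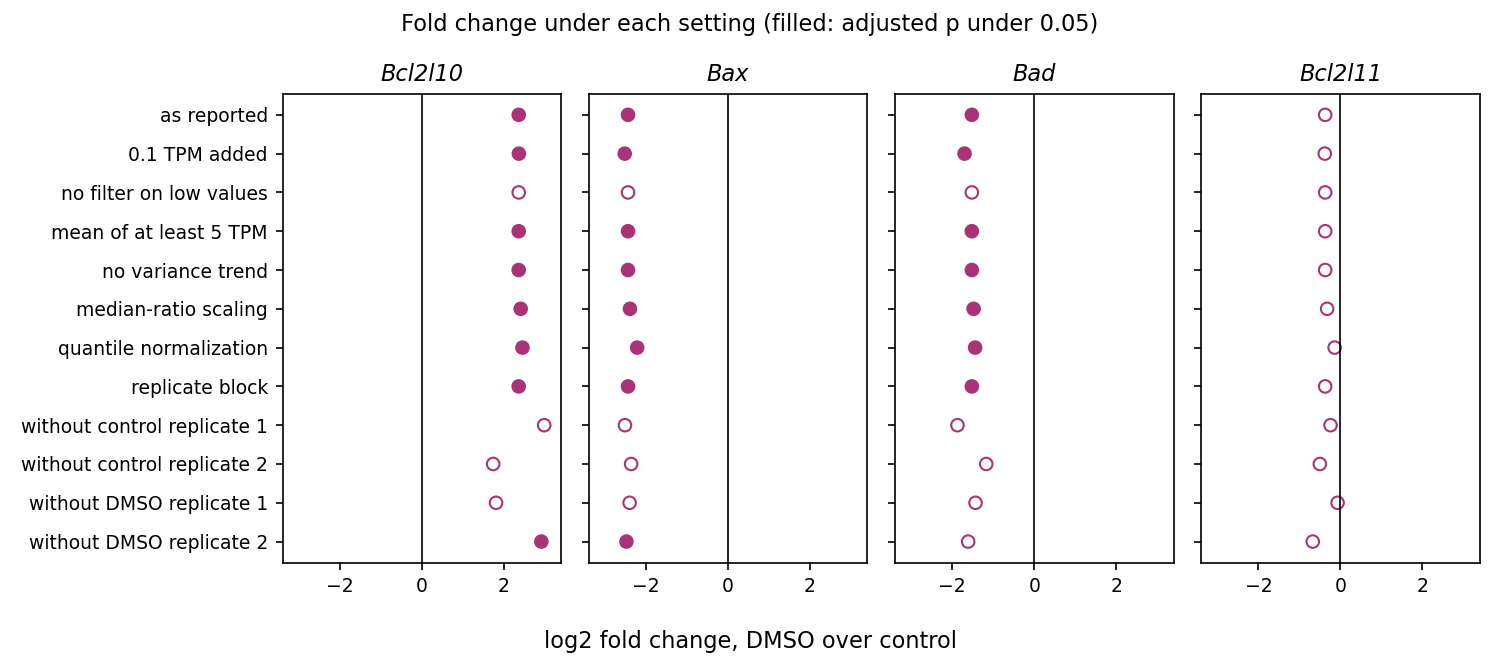
log2 fold change (DMSO over control) of the 4 tested members as reported and under 11 other settings, with filled points where the limma adjusted p-value was under 0.05. Bcl2l10 lies above 0 and the other members below 0 in every setting shown, and the open points of Bcl2l10, Bax and Bad belong to the fits without the filter or without a library.

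The order of the members by level was not the same in both groups. In control embryos the order was Bcl2l10, Bax, Bcl2l11, Bad, Bid, Bcl2l1 and Bcl2, and in DMSO-treated embryos Bcl2l11 stood above Bax. In both groups the ranges of Bid and Bcl2l1 overlapped, and in control embryos so did those of Bcl2l1 and Bcl2. No other neighbours overlapped. The control libraries held 1.55 and 2.07 TPM of Bax for each TPM of Bcl2l11, and the DMSO libraries 0.487 and 0.334.

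Pro-survival and pro-death RNA were then compared within each library, as a ratio of sums that a common factor for all genes of a library would not change. Quantile normalization is not such a factor, and the ratio was not taken after it. The summed level of the 4 pro-survival members was 417 and 176 TPM without DMSO and 2045 and 951 TPM with it. That of the 6 pro-death members was 126 and 133 TPM without DMSO and 42.4 and 57.8 TPM with it. For each TPM of pro-death RNA, the control libraries thus held 3.32 and 1.32 TPM of pro-survival RNA and the DMSO libraries 48.2 and 16.5. This counts Bcl2l10 as pro-survival, although in mice a pro-death action has also been described for it. With Bcl2l10 counted as pro-death, the direction of the difference would turn. As log2 of pro-death over pro-survival RNA, the means were -1.06 ± 0.94 in control and -4.82 ± 1.10 in DMSO-treated embryos (SD, n = 2 each), a difference of -3.75. No test was made of it, since the genes were chosen with results known and an exact permutation test of 2 libraries against 2 cannot go below p = 0.333.

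The sums, shares and ratio count Mcl1, Bak1 and Bok at their listed 0, which cannot be read as missing RNA, and would change if these genes had RNA that the table does not hold. As listed, the balance is in large part that of Bcl2l10, which made up 99.7% of the pro-survival sum in both control libraries and 99.9% in both DMSO libraries. The remaining pro-survival members together held 1.40 and 0.584 TPM without DMSO and 1.79 and 1.004 TPM with it. With Bcl2l10 left out, the difference was -1.95 on the log2 scale, measured against sums this small. With the mean log2(TPM + 1) of each group of members in place of sums, it was -1.38. Of the pro-death sum, Bax made up 55.0% and 57.7% without DMSO and 28.9% and 22.5% with it. The share of Bcl2l11 was 35.5% and 27.9% without DMSO and 59.4% and 67.2% with it, so that it took the place of Bax as the largest part.

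**Figure D3:**
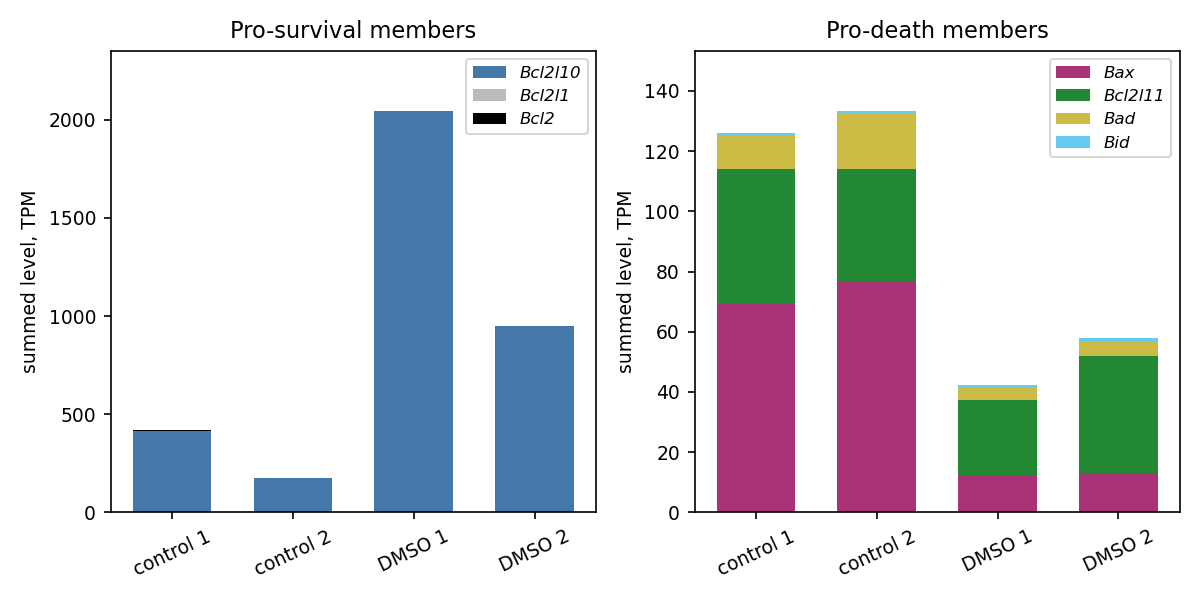
Summed TPM of the pro-survival members (left) and the pro-death members (right) in each library, stacked by gene, with a separate axis for each panel and members listed at 0 left out. The pro-survival bars consist almost wholly of Bcl2l10 and are tallest in DMSO replicate 1 at 2045 TPM, and the pro-death bars fall from 126 and 133 TPM in control to 42.4 and 57.8 TPM in DMSO-treated embryos.

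The rest of the family was read from a list of 15 further genes, of which 7 were tested, with a median log2 fold change of -0.93 against -0.09 for all genes tested. Of these 7, 1 rose, 2 fell and 4 did not pass the test, a share called of 42.9% beside 20.5% of all genes tested. Bik, a BH3-only gene, was at 17.6 and 17.5 TPM without DMSO and 80.3 and 67.1 TPM with it, so that this pro-death gene rose (log2 fold change 2.00, SE 0.27, limma adjusted p = 0.0181). Bcl2l14, which encodes Bcl-G, fell from 37.3 and 25.2 TPM to 2.54 and 5.46 TPM (log2 fold change -2.73, SE 0.40, limma adjusted p = 0.0181), and 12.7% of its 31-base words are shared. Bnip3, better known for the removal of mitochondria by autophagy, fell from 461 and 473 TPM to 157 and 202 TPM (log2 fold change -1.39, limma adjusted p = 0.0226), but 57.0% of its words are shared with other genes. By the mean over all libraries Bnip3 was the most abundant gene of the list. In both DMSO libraries Bnip3l, named after its values were seen, lay above it at 250 and 237 TPM. The values of Bik and Bax moved in opposite directions, although both genes belong to the pro-death side. Bik was not among the 10 members, and the sums given for the pro-death members leave it out. In each DMSO library Bik alone was above the pro-death sum (42.4 and 57.8 TPM). With Bik counted, the fall of that sum would be smaller.

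Of 23 regulators and binding partners of the family that were tested 3 fell, 0 rose and 20 did not pass, so that 13.0% were called lower beside 14.1% of all genes tested, with 15 fold changes below 0 and a median of -0.23. Bag1, a partner of Bcl2 and of the chaperone Hsp70, fell from 216 and 213 TPM to 65.99 and 98.99 TPM (log2 fold change -1.40, limma adjusted p = 0.0272). Bclaf1, named as a transcription factor associated with Bcl2, fell from 533 and 558 TPM to 152 and 271 TPM (limma adjusted p = 0.0327). Phb2, a prohibitin of the inner mitochondrial membrane, fell from 6.34 and 9.16 TPM to 1.08 and 2.29 TPM (limma adjusted p = 0.0317). The most abundant gene of this list was Dynll1, a dynein light chain that can tether Bim, at 1713 and 1908 TPM without DMSO and 1547 and 1536 TPM with it (limma adjusted p = 0.489).

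Downstream of the family, cytochrome c and other proteins leave the mitochondria. Of 12 genes of this step 2 fell and 10 did not pass, with a median log2 fold change of -0.11. The share called lower was 16.7%, near the 14.1% of all genes tested. Diablo, whose protein (Smac) relieves caspases of their inhibitors, fell from 81.2 and 72.6 TPM to 28.4 and 31.1 TPM (log2 fold change -1.34, limma adjusted p = 0.0243, with 39.6% of its words shared). Mtch2, the outer membrane receptor of cleaved Bid, fell from 38.3 and 33.2 TPM to 13.1 and 15.5 TPM (log2 fold change -1.27, limma adjusted p = 0.0308). Chchd2, the most abundant of these genes, was at 895 and 1211 TPM without DMSO and 538 and 728 TPM with it (limma adjusted p = 0.108).

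Of the 15 caspase and apoptosome genes only 5 were tested, of which 3 were called lower and 1 higher, beside 14.1% and 6.42% of all genes tested. The median log2 fold change of the 5 was -1.18. Apaf1, the scaffold of the apoptosome, fell from 65.9 and 78.4 TPM to 28.3 and 34.1 TPM (log2 fold change -1.18, limma adjusted p = 0.0325). Casp6, an executioner caspase, fell from 13.0 and 18.0 TPM to 3.70 and 6.72 TPM (limma adjusted p = 0.0421), and Acin1, which takes part in the condensation of chromatin, from 24.0 and 18.0 TPM to 5.47 and 4.05 TPM (limma adjusted p = 0.0209). Casp8, the initiator caspase of the death receptors, was at 0.531 and 0.312 TPM without DMSO and 4.13 and 1.97 TPM with it (log2 fold change 1.46, limma adjusted p = 0.0473). It passed the filter only through the DMSO libraries, in which it was high, and so had to differ to be tested. Casp9, the caspase that the apoptosome activates, was named after its values were seen and was too low to test, at 0.0902 to 0.514 TPM over the 4 libraries.

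Of 6 tested caspase inhibitors and their regulators 1 fell and 5 did not pass, with a median of -0.54, and the share called lower was again 16.7% beside 14.1% of all genes tested. Xiap, which binds and blocks caspases directly, fell from 53.04 and 41.6 TPM to 13.9 and 15.97 TPM (log2 fold change -1.59, SE 0.28, limma adjusted p = 0.0221). Xaf1, an antagonist of Xiap and the most abundant gene of the list, was at 82.9 and 123 TPM without DMSO and 139 and 187 TPM with it (limma adjusted p = 0.153).

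In the death receptor branch 0 of 8 tested genes were called by limma (1 at an unadjusted p-value under 0.05), beside 20.5% of all genes tested, with a median of 0.11. Its most abundant gene was Cflar, which holds caspase-8 in check at the receptors, at 193 and 97.1 TPM without DMSO and 281 and 204 TPM with it (limma adjusted p = 0.164). In the p53 branch 1 of 14 tested genes rose, 1 fell and 12 did not pass, with a median of -0.33, so that 14.3% were called beside the same 20.5%. Ppm1d, a phosphatase that damps the p53 response, rose from 7.69 and 7.12 TPM to 17.6 and 30.8 TPM (log2 fold change 1.53, limma adjusted p = 0.0328). Aen, an exonuclease induced by p53, fell from 62.9 and 66.8 TPM to 23.3 and 21.7 TPM (log2 fold change -1.49, limma adjusted p = 0.0217). Mdm4, an inhibitor of p53, was the most abundant at 882 and 888 TPM without DMSO and 1528 and 1164 TPM with it (limma adjusted p = 0.134).

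Over the 7 apoptosis lists 15 of 75 tested genes were called, 3 higher and 12 lower, or 20%, which is close to the 20.5% of all genes tested. The 3 higher genes include Casp8, which passed the filter only through the DMSO libraries. The lists' median log2 fold change was -0.31. Without control replicate 1, control replicate 2 or DMSO replicate 1 none was called, with 26, 16 and 20 at an unadjusted limma p-value under 0.05, beside 3, 3 and 15 genes called and 3871, 2659 and 3129 at such a p-value in the whole table. Without DMSO replicate 2, 18 genes of the lists were called and 2091 in the whole table, and Ppm1d was no longer called (limma adjusted p = 0.0844). After quantile normalization Apaf1, Bclaf1 and Casp6 were no longer called, after median-ratio scaling Casp6, and with 0.1 TPM added before the log2 Casp8. Genes on both sides of the path were among those that fell, such as Apaf1 and Diablo on one side and Xiap on the other.

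**Figure D4:**
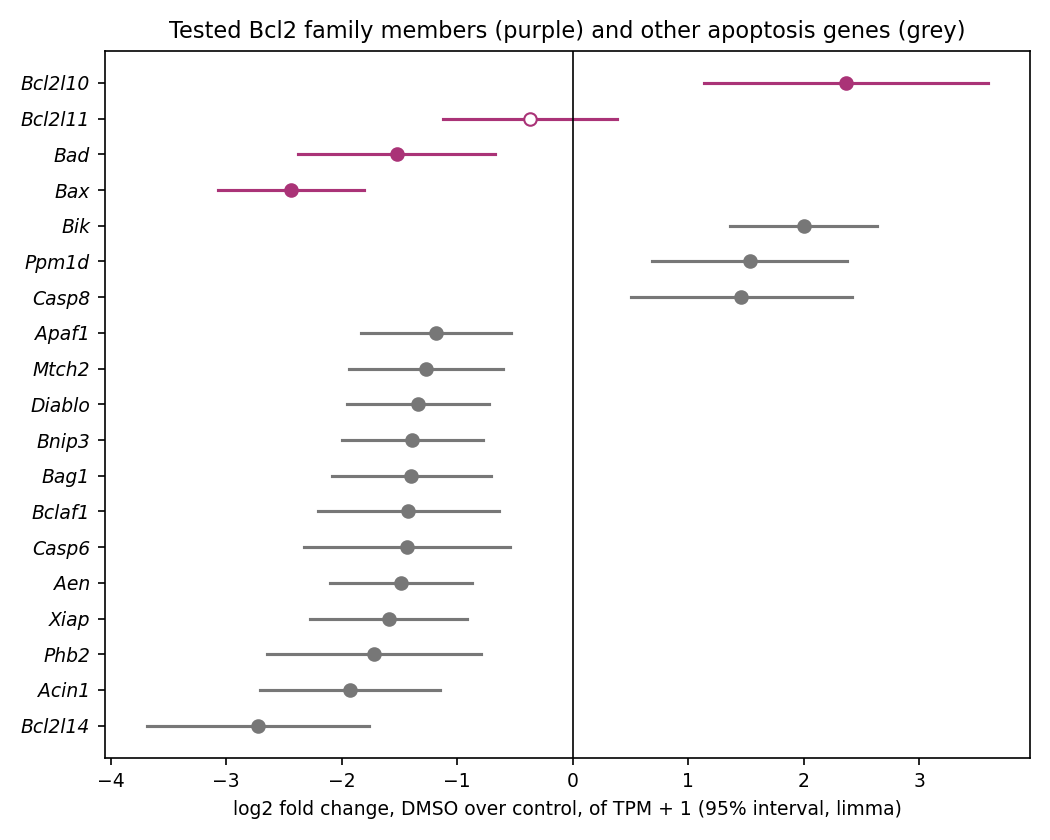
log2 fold change of TPM + 1 (DMSO over control) with its 95% interval from limma for the 4 tested members (purple) and the 15 called genes of the apoptosis lists (grey), with an open point for Bcl2l11, which was not called. Bcl2l10 and Bik lie at 2.36 and 2.00, and Bax and Bcl2l14 at -2.44 and -2.73. Casp8 passed the filter only through the DMSO libraries, in which it was high.

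Bcl2l10 was also set beside markers of the stage, since it is an oocyte gene. The log2 fold changes of the 13 tested maternal genes had 0.85 as their median, beside -0.09 for all genes tested. Of these fold changes 8 were above 0. Among the 13 genes 2 rose, 0 fell and 11 did not pass, so that 15.4% were called higher beside 6.42% of all genes tested. These 2 were Bmp15, an oocyte growth factor, at 102 and 56.0 TPM without DMSO and 544 and 285 TPM with it, and Oosp1, an oocyte secreted protein, at 877 and 576 TPM without DMSO and 2086 and 1763 TPM with it. Both were named after their values were seen. The log2 fold change of Bmp15 (2.36, limma adjusted p = 0.0221) was the same as that of Bcl2l10 to 2 decimals, and that of Oosp1 was 1.43 (limma adjusted p = 0.0273). Like Bcl2l10, Bmp15 was higher in the library numbered 1 of each group, but so were other genes of the maternal list, Oosp1 among them. Dppa3 was lower in that library of each group. The fold changes of 5 of the 13 tested maternal genes, Dppa3 among them, were below 0. With the replicate number as a block, 8 of the 13 maternal genes were called, all higher, beside 2151 of all 12038 genes tested called higher. The maternal list summed to 12920 and 16190 TPM without DMSO and 13944 and 17601 TPM with it, most of it Dppa3. Of 10 genes activated at the 2-cell stage 5 rose and 0 fell, beside 6.42% of all genes tested called higher, with a median of 1.06 and sums of 1113 and 788 TPM without DMSO and 3719 and 2494 TPM with it. Of the 31-base words of these 5 genes, between 21.5% and 89.1% occur in transcripts of other genes. The part of maternal or newly made RNA in the result for Bcl2l10 was not tested.

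Markers of other cells that pools of embryos could carry were read as well. The 11 cumulus and granulosa cell markers summed to 2.99 and 1.73 TPM without DMSO and 4.52 and 3.19 TPM with it, with Amh and Inhba at 0 in all libraries. Cyp11a1 was the most abundant by the mean over all libraries, at 1.16 TPM. In control replicate 1 Tnfaip6 lay above it (1.52 against 0.781 TPM), and in DMSO replicate 2 Cyp19a1 did (1.08 against 0.958 TPM). Sperm markers summed to 2.96 and 3.38 TPM without DMSO and 13.5 and 8.69 TPM with it, mostly Prm2, with Tnp2 and Smcp at 0. Blood cell markers reached 16.6 and 8.29 TPM together without DMSO and 13.1 and 24.6 TPM with it, with Hbb-bt at 0. Hba-a2 was the most abundant by the mean over all libraries, but in control replicate 2 it was at 2.51 TPM and Cd52 at 3.93 TPM. Oviduct markers summed to 21.5 and 24.2 TPM without DMSO and 31.9 and 40.1 TPM with it, mostly Ovgp1. In the DMSO libraries Ovgp1 alone, at 26.2 and 33.2 TPM, was above Bax, although 29.4% of its words occur in transcripts of other genes. Every other oviduct marker was at or below 3.32 TPM in each library. Of these 4 lists the sperm markers had 2 tested genes, Prm2 and Tnp1, and both were called higher, beside 6.42% of all genes tested (limma adjusted p = 0.0408 and 0.0429), although Tnp1 passed the filter only through the DMSO libraries, in which it was high. In the other lists 0 of the 7 tested genes were called or had an unadjusted limma p-value under 0.05. Tnp1, Cd52, Tnfaip6, Cyp19a1 and the markers at 0 were named after their values were seen. The part of these markers in the results for the Bcl2 family was not tested.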

How the data were processed

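RNA of 2-cell embryos was sequenced in 4 libraries. Per the labels and methods, the authors ran kallisto against Ensembl transcripts (GRCm38, mm10), summed transcripts per gene with tximport and deposited TPM values, which keep no depth, so no counting error or detection limit was derived. The submitters' processing notes also name STAR, SAMtools and bedtools. No column of the authors' own comparisons was used, and no per-sample column was left out.

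Groups came from the sample titles. The linear model of limma 3.58.1 (R 4.3.3) was fitted to log2(TPM + 1) of the genes whose mean reached 1 TPM (lmFit, eBayes with a mean-variance trend, two-sided, Benjamini-Hochberg adjustment over all genes tested, called at 0.05). The fit was tried on simulated data with 200 changed genes and independent errors between libraries. No result reported here rests on that trial. Gene names came from the Ensembl identifiers (29589 of 30049 matched), and positions, transcripts and coding sequences from GENCODE M21, which is on GRCm38. Sequence shared with other genes was measured as the percent of a gene's 31-base words found, on either strand, in other genes' transcripts. Other steps used matplotlib 3.10.9, numpy 2.4.6 and pandas 2.3.3 under Python 3.11.15.

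The members and gene lists were chosen with earlier results of these data known, and the list of widely used genes after their values were seen. The genes named are the 10 members, from each apoptosis list the genes called (at most 6) and the most abundant gene, from each marker list the most abundant gene, and for each member called the gene nearest to it in log2(TPM + 1). Other genes were named after their values were seen: those marked as such, marker genes listed at 0 and genes that overlap a member. The alternatives were 0.1 TPM added before the log2, no filter, a filter at a mean of 5 TPM, quantile normalization, median-ratio scaling, no trend, the replicate number as a block, leaving out each library and, for the ratio of pro-death to pro-survival RNA, other summaries of the members.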

Additional observations from a re-analysis of the deposited data

How the results depend on the processing

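Under the filter at 5 TPM, the fit without a trend, both scalings, 0.1 TPM added and the replicate block, the count of members called stayed at 3, and the 4 tested members kept their direction under all 11 settings. With no filter 0 of 22257 genes were called by limma (5368 at an unadjusted p-value under 0.05), 0 members (3 unadjusted) and 0 genes of the apoptosis lists (36 unadjusted). Without one library, the calls ranged from 3 to 2091 over the whole table, from 0 to 2 for the members and from 0 to 18 for the lists, and each of control replicate 1, control replicate 2 and DMSO replicate 1 brought the members to 0. The difference in log2 pro-death over pro-survival RNA ranged from -4.53 to -2.98 without one library, and was -1.38 with mean log2 values and -1.95 without Bcl2l10. The replicate numbers, with 2 pairs, are shared by the groups, but nothing says that they pair the libraries, whose same-numbered deviations correlated across genes at r = 0.354. With them as a replicate block 5132 genes (42.6% of those tested) and 36 of the 75 genes of the lists were called. Of the 13 maternal genes 8 were then called, all higher, beside 2151 of all 12038 genes tested called higher. Cflar, Xaf1, Mdm4 and Chchd2 were called as well (limma adjusted p = 0.0208, 0.0253, 0.0239 and 0.00836). The cause of these changes was not tested. TPM values keep no depth, so the error of low values such as those of Bcl2 and Bid is unknown.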

Other observations

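The tested gene nearest to each called member, outside the lists, was found by the root mean square difference in log2(TPM + 1) over the 4 libraries. For Bax it was Psmd12, a subunit of the proteasome, at 61.6 and 61.7 TPM without DMSO and 13.0 and 13.9 TPM with it, with a difference of 0.19. For Bad it was Gja1, the gap junction protein connexin 43, at 11.5 and 18.9 TPM without DMSO and 3.68 and 5.27 TPM with it, with a difference of 0.09. For Bcl2l10 it was AU022751, at 513 and 182 TPM without DMSO and 1247 and 631 TPM with it, with a larger difference of 0.49. With 4 libraries, such likeness is a description of levels alone.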
